A study of Mus musculus with 6 samples.

Results

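The crypt base stem cell genes are 9 genes that mark the cells at the bottom of the colonic crypt: Lgr5, Ascl2, Smoc2, Cd44, Sox9, Ephb2, Ephb3, Axin2 and Rnf43. They were read on Affymetrix MOE430 2.0 mouse arrays through every probe set whose platform annotation names that gene alone. Of the 9 genes, 8 had such probe sets, 18 of the 45101 on the array, and no probe set named Ephb2 alone. The arrays came from whole colon of mice aged 6 to 8 weeks, 3 from wild-type mice (NHE3+/+) and 3 from littermates deficient in NHE3 (NHE3-/-), the product of Slc9a3, which takes up luminal sodium in exchange for protons. The sources used here do not give strain, sex, the disrupted part of the gene or whether an array holds 1 animal or a pool. The p-values therefore reflect variation among these arrays, some of which may be technical.

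Stem cells at the crypt base renew the colonic epithelium, and their daughters divide, move up the crypt and mature into absorptive and secretory cells. Wnt signalling is strongest at the base: it spares beta-catenin from destruction, and beta-catenin with TCF/LEF factors then switches on target genes. Many of the 9 genes are such targets, and several act back on the pathway. LGR5 binds R-spondins, which sustain Wnt receptors, RNF43 removes Frizzled receptors from the membrane, and AXIN2 is a scaffold of the complex that destroys beta-catenin. ASCL2 is a transcription factor of stem cells, SOX9 a transcription factor of crypt progenitors, EPHB2 and EPHB3 are receptors that hold crypt cells in place against ephrin-B ligands, CD44 is a receptor for hyaluronan and SMOC2 a secreted matricellular protein.

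Crypt base genes were lower in NHE3-/- colon in most members, and none was called higher. Through the probe set of highest mean log2 signal for each gene, called representative here, 5 of the 8 genes fell: Cd44, Lgr5, Smoc2, Sox9 and Ephb3. Cd44 had the largest change, to 32.9% of the wild-type mean signal. Ascl2, Axin2 and Rnf43 were not called. A call is an adjusted p under 0.05 from limma over the 27022 probe sets tested. Fold changes are differences of mean log2(signal + 31.4), NHE3-/- minus NHE3+/+, so they understate the change of dim probe sets.

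At this threshold 7.51% of the 12553 genes tested through a representative probe set were called lower and 6.38% higher. The median log2 fold change was -0.94 over the 8 genes and -0.07 over all genes tested this way. By probe sets, 13 of the 18 passed the filter on dim signals, and 8 of these 13 were lower and 0 higher, where 6.24% of all probe sets tested were lower and 4.97% higher. No member probe set was higher at an unadjusted p under 0.05 either, since all 13 had a negative log2 fold change. The share of all genes at this unadjusted cut was not computed, so the list counts given at it below have no baseline. All 3 NHE3-/- arrays lay below all 3 wild-type arrays in 10 of the 13, as did 20.1% of all probe sets tested, and the reverse held for 0 of the 13 and for 12.2% of all. By genes the counts were 5 lower and 0 higher of 8, where 21.9% and 14.8% of all genes tested were so placed. In whole tissue, fewer cells of a type and less RNA per cell cannot be told apart.

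**Figure D1:**
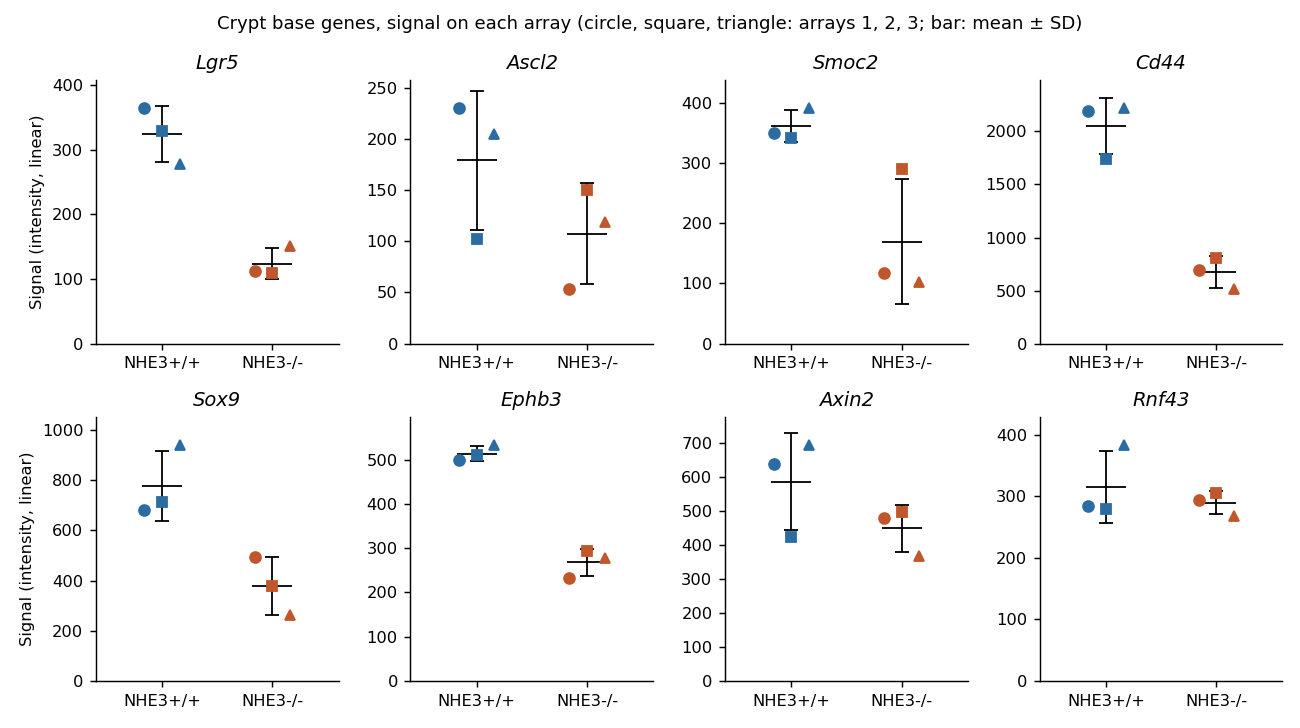
Signal (linear intensity, y axis from 0) of the representative probe set of each of the 8 measured genes, by genotype. Circles, squares and triangles are arrays 1, 2 and 3, and bars give the mean ± SD (n = 3). The genotypes do not overlap for Lgr5, Smoc2, Cd44, Sox9 and Ephb3, and they overlap for Ascl2, Axin2 and Rnf43.

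The arrays were comparable in scale, each with a trimmed mean signal of 500 and median signals between 97.8 and 121.4. Correlations of log2 signals were 0.965 to 0.973 within a genotype and 0.932 to 0.959 between genotypes. NHE3-/- array 3 was the least like wild type, with 0.932 to 0.939, against 0.947 to 0.959 for NHE3-/- arrays 1 and 2. Slc9a3 was not called by either probe set. The brighter had signals of 5908, 5647 and 6669 in wild type and 5970, 4266 and 3665 in NHE3-/- colon. Since the disrupted part is unknown, a probe set outside it checks nothing. Xist, the RNA of the inactive X chromosome of female cells, was at 2639 and 1929 on NHE3-/- arrays 1 and 2. It was at 12.3 on NHE3-/- array 3 and at 2 to 8 across the wild-type group, so the arrays differ in more than genotype. High Xist was on NHE3-/- arrays only, so a sex difference would be partly confounded with genotype in every fold change given here. NHE3-/- array 3 was therefore also compared with wild type by itself, which assumes that it varies like the other arrays. In that comparison 3 of the 8 crypt base genes were lower, Cd44, Smoc2 and Sox9, where 5.04% of all genes tested were lower. The count was also 3 without wild-type array 3, where 3.71% of all genes tested were lower.

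RefSeq promoter windows, 250 bases before to 50 bases after a transcription start on build GRCm38.p6, were at hand for 6 members: Ascl2, Cd44, Ephb2, Ephb3, Axin2 and Rnf43, the last with 2 starts. The windows of Cd44 and Ephb3, members that fell, and of Axin2, a Wnt feedback gene that was not called, are shown because the members share Wnt as a regulator but differed in their change. Capitals mark E-boxes (CANNTG), the core bound by basic helix-loop-helix factors, the family of ASCL2.
Cd44, chr2:102901616-102901915, minus strand: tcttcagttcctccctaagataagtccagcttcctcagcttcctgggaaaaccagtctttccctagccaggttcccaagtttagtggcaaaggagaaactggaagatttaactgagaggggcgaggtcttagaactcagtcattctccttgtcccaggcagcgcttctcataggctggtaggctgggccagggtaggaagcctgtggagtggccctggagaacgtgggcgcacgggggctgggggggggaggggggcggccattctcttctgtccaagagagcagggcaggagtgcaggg
Ephb3, chr16:21204545-21204844, plus strand: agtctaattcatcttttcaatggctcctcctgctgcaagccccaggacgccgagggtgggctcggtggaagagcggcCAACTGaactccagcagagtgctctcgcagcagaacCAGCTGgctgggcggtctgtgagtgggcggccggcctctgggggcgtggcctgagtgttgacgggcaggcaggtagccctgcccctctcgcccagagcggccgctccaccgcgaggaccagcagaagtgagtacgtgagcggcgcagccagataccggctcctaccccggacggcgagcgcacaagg
Axin2, chr11:108920099-108920398, plus strand: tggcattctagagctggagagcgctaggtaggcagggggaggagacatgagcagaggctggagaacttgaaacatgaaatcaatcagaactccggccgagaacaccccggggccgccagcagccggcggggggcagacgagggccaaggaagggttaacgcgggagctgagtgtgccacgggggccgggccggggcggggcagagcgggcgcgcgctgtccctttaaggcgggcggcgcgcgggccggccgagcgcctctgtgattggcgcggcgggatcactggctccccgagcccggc

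Each of the 7 windows was searched on both strands for the TCF/LEF core, spelled CTTTGAA or CTTTGAT, and for CANNTG, which reads the same on both strands. The TCF/LEF letters were in 0 of the 7 windows and in 8.65% of all 32851 windows of the table. E-boxes were in 4 of the 7 and in 72.3% of all windows. The Ephb3 window holds a CAACTG from base -173 to base -168 and a CAGCTG from base -137 to base -132, counted from the start. Ascl2 has 2 E-boxes in its window, Ephb2 and the first-listed Rnf43 start 1 each, and no searched motifs overlapped. These letters are a description of the windows shown, and enhancers were not searched.

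Lgr5 was read by a brighter probe set, 1450988_at, with 364.5, 328.4 and 278.4 in wild type (arrays in the order 1, 2, 3, here and from now on) and 111.9, 108.5 and 151 in NHE3-/- colon. The highest NHE3-/- array lay well below the lowest wild-type array. The means were 324 ± 43.2 and 124 ± 23.6 (SD, n = 3 each), which gave -1.20 on the log2 scale (SE 0.21, limma adjusted p = 0.00579). The call was lost with NHE3-/- array 3 alone against wild type (-0.95, adjusted p = 0.0799), the NHE3-/- array with the highest Lgr5 signal. A dimmer Lgr5 probe set, 1444519_at, had between 10.1 and 73.9 on all arrays, was below the filter and was not tested.

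Rnf43, which opposes R-spondin action at the membrane, had signals of 283.4, 279.7 and 382.7 in wild type and 294.5, 304.7 and 268.4 in NHE3-/- colon. The genotypes overlapped, with wild-type array 3 above the other arrays. The log2 fold change was -0.10 (SE 0.19, 95% interval -0.51 to 0.31, adjusted p = 0.767), close to the median of all probe sets tested (-0.10). It turned to 0.01 with array medians set equal, to 0.07 with quantile normalization and to 0.03 without wild-type array 3. The interval leaves room for a small change in either direction.

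Axin2, the negative feedback scaffold, had 2 tested probe sets. The brighter, 1436845_at, had 638.6, 423.2 and 692.2 in wild type and 478.5, 497 and 368.3 in NHE3-/- colon. Wild-type array 2 lay inside the NHE3-/- range, so the genotypes overlapped. The log2 fold change was -0.34 (SE 0.20, 95% interval -0.79 to 0.10, adjusted p = 0.297). The dimmer, 1421341_at, had 107.1, 91 and 88.7 against 46.1, 83.9 and 15.9, with no overlap but a wide NHE3-/- spread (log2 fold change -0.76, SE 0.37, adjusted p = 0.214). Neither Axin2 probe set was called, and both intervals include 0 and falls larger than those measured.

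Sox9, which encodes a transcription factor of crypt progenitors, fell in both tested probe sets. The representative, 1451538_at, had 680.7, 711.9 and 938.5 in wild type and 493.2, 376.3 and 261.8 in NHE3-/- colon, or -1.01 on the log2 scale (SE 0.22, adjusted p = 0.0139). The other, 1424950_at, had 623.9, 655.1 and 615.1 against 393.1, 339.2 and 315.4, or -0.80 (SE 0.15, adjusted p = 0.00749). Every NHE3-/- array lay below every wild-type array in both. The representative lost its call when the brightest wild-type array, array 3, was omitted (-0.87, adjusted p = 0.0575), while the other probe set kept its call in all 15 alternative fits. A third-listed Sox9 probe set, 1433889_at, was below the filter, with 9.9 to 29.5 in wild type and 14 to 106 in NHE3-/- colon.

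Ascl2, the transcription factor most closely tied to the Lgr5 stem cell, was dim and variable. Its brightest probe set, 1460514_s_at, had 230.3, 102.2 and 204.7 in wild type and 53.3, 150.1 and 119.2 in NHE3-/- colon. The genotypes overlapped, through wild-type array 2 and NHE3-/- arrays 2 and 3. The log2 fold change was -0.61 (SE 0.35, 95% interval -1.39 to 0.16, adjusted p = 0.288) and ran from -0.91 without wild-type array 2 to -0.29 without NHE3-/- array 1. The ending _s_at is Affymetrix's mark for probes that can also match transcripts of another gene, so this reading is less certain. The same holds for other genes below read through such probe sets, among them Slc26a3, Car4, Mcm3 and Xpot. The other Ascl2 probe sets were below the filter and were not tested. Of these, 1422396_s_at had 104.3, 69.3 and 54.7 against 50, 37.9 and 7.8, and 1432018_at had 64.1, 61.3 and 93.4 against 38.2, 89.4 and 7.2.

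Ephb3, which keeps crypt base and progenitor cells from mixing with ephrin-bearing cells above, was the member with the tightest replicates in wild type among the representative probe sets. Its single probe set, 1451550_at, had 499.7, 509.8 and 532.6 in wild type and 233.1, 293.4 and 277.1 in NHE3-/- colon. The wild-type mean was 514 ± 16.9 and the NHE3-/- mean 268 ± 31.2 (SD, n = 3 each). The genotypes were far apart relative to this spread, and the log2 fold change was -0.87 (SE 0.16, adjusted p = 0.00721). With NHE3-/- array 3 alone the value was -0.82 and the call was lost (adjusted p = 0.0664).

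Cd44 fell in each of its 3 tested probe sets, by log2 fold changes of -1.57 (SE 0.17, adjusted p = 0.000258), -1.56 (SE 0.16, adjusted p = 0.000165) and -1.40 (SE 0.20, adjusted p = 0.00141). The representative, 1434376_at, had 2191, 1743 and 2221 in wild type and 697.9, 809.2 and 517.2 in NHE3-/- colon. The second-listed, 1423760_at, had 2140, 1606 and 2047 against 583.1, 754.1 and 568.3. The third-listed, 1452483_a_at, was dimmer, with 1075, 718.9 and 768.6 against 254.4, 372.9 and 278. In each of them a wide gap separated the genotypes. All 3 kept their calls in all 15 alternative fits, the representative with log2 fold changes from -1.92 to -1.40. Only 0.315% of all probe sets tested had a more negative log2 fold change than the representative. A Cd44 probe set near background, 1443265_at, had signals of 3 to 9.7 on all arrays and was not tested.

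Leukocytes also carry CD44, so their markers are given beside it. Of 11 leukocyte markers with a probe set, 10 were tested and 0 were called in either direction by limma, with 4 lower and 0 higher at an unadjusted p under 0.05. The count was 3 lower without NHE3-/- array 1 or with NHE3-/- array 3 alone, and 2 lower without wild-type array 1. The summed signal of the 11 was 5077 to 12516 in wild type and 3500 to 5899 in NHE3-/- colon, so the ranges overlapped. Ptprc, the CD45 gene of all leukocytes, had 1167, 2630 and 1169 against 1044, 904.7 and 562.2 (log2 fold change -0.89, SE 0.30, adjusted p = 0.0813), and the myeloid marker Itgam was below the filter. Of the 10 tested, 8 had a negative log2 fold change. The B cell genes Ms4a1 (-1.42, SE 0.47), Cd79b (-1.23, SE 0.38) and Cd79a (-1.13, SE 0.34) had more negative values than Ptprc. The T cell genes Cd3e (0.72, SE 0.38, adjusted p = 0.246) and Cd3g (0.03, SE 0.28, adjusted p = 0.959) had positive values and were not called. Wild-type array 2 had the highest leukocyte sum and, in all 3 tested Cd44 probe sets, the lowest wild-type Cd44 signal. Without that array the Cd44 representative had a log2 fold change of -1.69 (adjusted p = 0.00142), and the median of the leukocyte markers was -0.17, against -0.56 with all arrays. With any other single array left out, that median lay between -0.80 and -0.52. With NHE3-/- array 3 alone against wild type it was -1.02, and the Cd44 representative had -1.92. The part of leukocytes in the Cd44 difference was not tested.

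Smoc2 had signals of 350.6, 341.8 and 391.4 in wild type and 116.6, 289.9 and 102.1 in NHE3-/- colon through 1415935_at. NHE3-/- array 2 lay close to the wild-type range, while arrays 1 and 3 were far below it. The log2 fold change was -1.08 (SE 0.30, adjusted p = 0.0425), near the threshold. The call was lost in 9 of the 15 alternative fits, among them medians set equal (-0.98, adjusted p = 0.0588), no filter (-1.08, adjusted p = 0.0794), and leaving out any array except NHE3-/- array 2. Without NHE3-/- array 2 the log2 fold change was -1.48 (adjusted p = 0.00405). The dimmer 1431362_a_at had 98.7, 104.8 and 101 against 7, 78.3 and 73.3 and was not called (-0.80, SE 0.41, adjusted p = 0.237).

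SMOC2 is also made by stromal cells. Of the 9 fibroblast and matrix markers, all tested, 1 was lower, the intermediate filament gene Vim (-0.86, SE 0.19, adjusted p = 0.0163), and 0 were higher, also at an unadjusted p under 0.05. That call was lost with no trend, without wild-type array 2 or NHE3-/- array 3, and with the latter alone. Their summed signal was 4209 to 5438 in wild type and 3672 to 4502 in NHE3-/- colon, with overlap. The part of stromal cells in the Smoc2 difference was not tested.

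**Figure D2:**
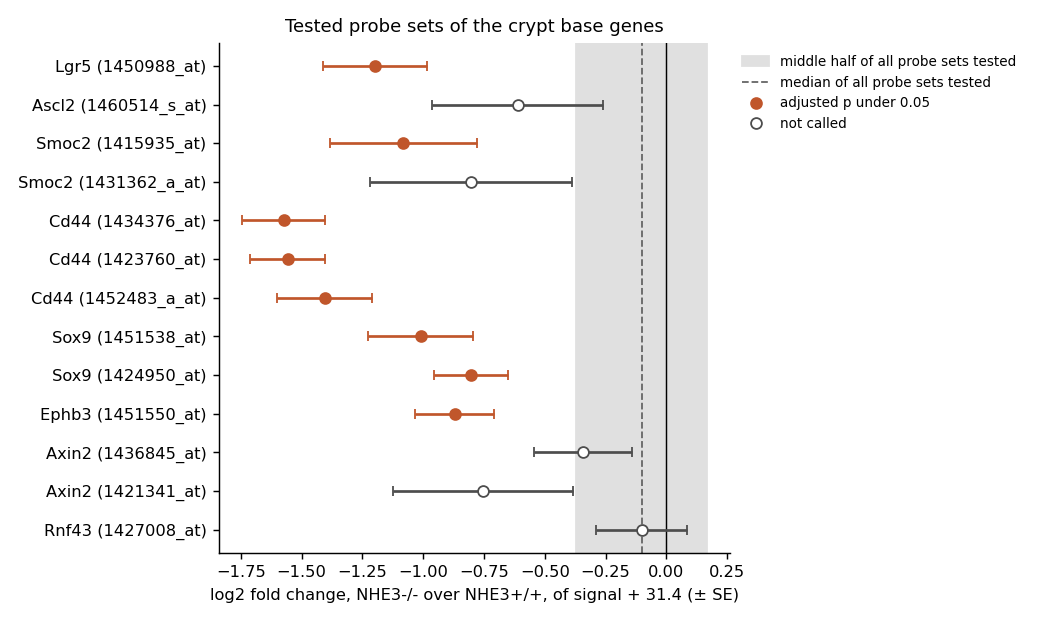
Log2 fold change (NHE3-/- over NHE3+/+, x axis) with its SE for the 13 tested probe sets of the crypt base genes. Filled points passed the threshold, open points did not, the dashed line is the median of all probe sets tested (-0.10) and the grey band spans their quartiles (-0.37 to 0.17). The 8 called probe sets lie between -1.57 and -0.80, all to the left of the band.

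The order of the arrays within each genotype is described here and was not tested. NHE3-/- array 2 had the highest NHE3-/- signal for 6 of the 8 representative probe sets, as for 31.6% of all 12553 genes tested, and NHE3-/- array 3 the lowest for 5, as for 35.4%. Among the wild-type arrays, array 3 was highest for 6 (33.5% of all genes) and array 2 lowest for 5 (30.8%). The mean of the 8 log2 profiles, each centred on its own mean, ran 0.48, 0.23 and 0.56 in wild type and -0.51, -0.20 and -0.56 in NHE3-/- colon. The summed signal of 18 proliferation genes was likewise highest within its group on NHE3-/- array 2, at 19635 against 16064 and 15024 on arrays 1 and 3. On the wild-type arrays it was 28065, 24225 and 21654, where array 3 was the lowest.

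Among 22802 tested probe sets of other single genes, those nearest to this mean profile named Rfc2, a subunit of the clamp loader of DNA replication, Snhg1, a host transcript of small nucleolar RNAs, Kcnh3, a potassium channel gene, Gsta4, a glutathione transferase, and Xpot, a transfer RNA export factor. Likeness was the root mean square difference of centred log2 values over the 6 arrays, from 0.05 for Rfc2 to 0.06 for Xpot. The probe sets of Rfc2 and Xpot were not the representative ones of their genes. Snhg1 had 1246, 1106 and 1268 in wild type and 580.3, 715.5 and 574.7 in NHE3-/- colon. Gsta4 had 2434, 1898 and 2491 against 1279, 1410 and 1093. In both, as in the mean profile, array 2 was the lowest in wild type and the highest in NHE3-/- colon. These genes were chosen for likeness over the same 6 arrays, so the shared order follows from the choice and is no separate result.

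Other Wnt pathway genes are given by their lists. Of 14 tested genes for Wnt receptors and the R-spondin arm, 3 were lower and 0 higher (median log2 fold change -0.49), with 7 lower and 0 higher at an unadjusted p under 0.05. The Frizzled receptors Fzd7 (-0.78, SE 0.21, adjusted p = 0.0396), Fzd4 (-0.61, SE 0.17, adjusted p = 0.0438) and Fzd5 (-0.49, SE 0.10, adjusted p = 0.0131) fell. With medians set equal, without wild-type array 2 or with NHE3-/- array 3 alone 0 of the 14 were called, and without any other single array 1 or 2. The co-receptor gene Lrp5 (-1.04, SE 0.33, adjusted p = 0.0710) and the Frizzled gene Fzd3 (-0.90, SE 0.29, adjusted p = 0.0703) had all 3 NHE3-/- arrays below wild type and were not called. Lgr4, the R-spondin receptor found along the whole crypt, had 5104, 5235 and 4424 in wild type and 5362, 5283 and 4500 in NHE3-/- colon, or 0.04 on the log2 scale (SE 0.11, adjusted p = 0.869). Znrf3, the partner of Rnf43, had -0.49 (SE 0.20, adjusted p = 0.142), and the 4 R-spondin genes and Lgr6 were below the filter.

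Of 14 tested genes of the beta-catenin core, its destruction complex and the TCF factors, 1 was lower and 0 higher (median -0.13), and 2 were lower and 0 higher at an unadjusted p under 0.05. Lef1, a TCF-family factor gene, had -0.92 (SE 0.47, adjusted p = 0.237), with overlapping genotypes. Dvl1, which relays the receptor signal, had -0.58 (SE 0.15, adjusted p = 0.0288) and kept its call in 8 of the 15 alternative fits, not with medians set equal, no trend or NHE3-/- array 3 alone, nor without wild-type array 2 or 3 or NHE3-/- array 1 or 3. Ctnnb1, which encodes beta-catenin, had 25221, 27527 and 24555 against 25486, 26194 and 26625, or 0.02 on the log2 scale (SE 0.09, adjusted p = 0.914). The kinase genes Csnk1a1 (0.20, adjusted p = 0.190) and Gsk3b (0.03, adjusted p = 0.899) were not called.

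Among 13 tested other Wnt target genes, of which 4 also stand in other lists here, 1 was lower and 0 higher (median -0.30). At an unadjusted p under 0.05, 5 were lower and 0 higher. Ccnd1, the gene of the G1 cyclin D, fell from 1950, 1658 and 2300 to 1188, 1410 and 1055, or -0.68 on the log2 scale (SE 0.15, adjusted p = 0.0165). That call was lost with medians set equal, with no trend and without wild-type array 3, NHE3-/- array 1 or NHE3-/- array 3. Ets2 (0.13, adjusted p = 0.442), Jun (0.18, adjusted p = 0.504) and Myb (-0.30, adjusted p = 0.125), transcription factor genes, were not called.

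Of 5 tested ephrin-B ligand and other Eph receptor genes, 1 was lower and 0 higher, and the same counts held at an unadjusted p under 0.05. Ephb4, a receptor of the same family as Ephb3, had 825.8, 726.2 and 632.7 in wild type and 447.3, 370.2 and 341.4 in NHE3-/- colon, with no overlap (log2 fold change -0.86, SE 0.16, adjusted p = 0.00778), and kept its call in all 15 alternative fits. The ligands that EPHB receptors meet higher in the crypt, Efnb1 (0.13, SE 0.13, adjusted p = 0.554) and Efnb2 (-0.13, SE 0.18, adjusted p = 0.687), were not called, nor was Epha2 (0.45, SE 0.22, adjusted p = 0.214).

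Another list of crypt base and reserve stem cell genes gave 6 lower and 0 higher of 13 tested (median -0.59). At an unadjusted p under 0.05, 10 were lower and 0 higher. Rgmb, a co-receptor of bone morphogenetic proteins, had -0.82 (SE 0.20, adjusted p = 0.0217), Dclk1, a kinase of tuft cells, -0.81 (SE 0.19, adjusted p = 0.0205), the water channel Aqp4 -0.72 (SE 0.15, adjusted p = 0.0131) and the cell cycle kinase Cdk6 -0.67 (SE 0.17, adjusted p = 0.0262). The count was 1 with no mean-variance trend, 2 with medians set equal, without wild-type array 3 or without NHE3-/- array 1, and 3 without wild-type array 2, without NHE3-/- array 3 or with that array alone. Olfm4, a stem cell marker of the small intestine, and Tert were below the filter.

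**Figure D3:**
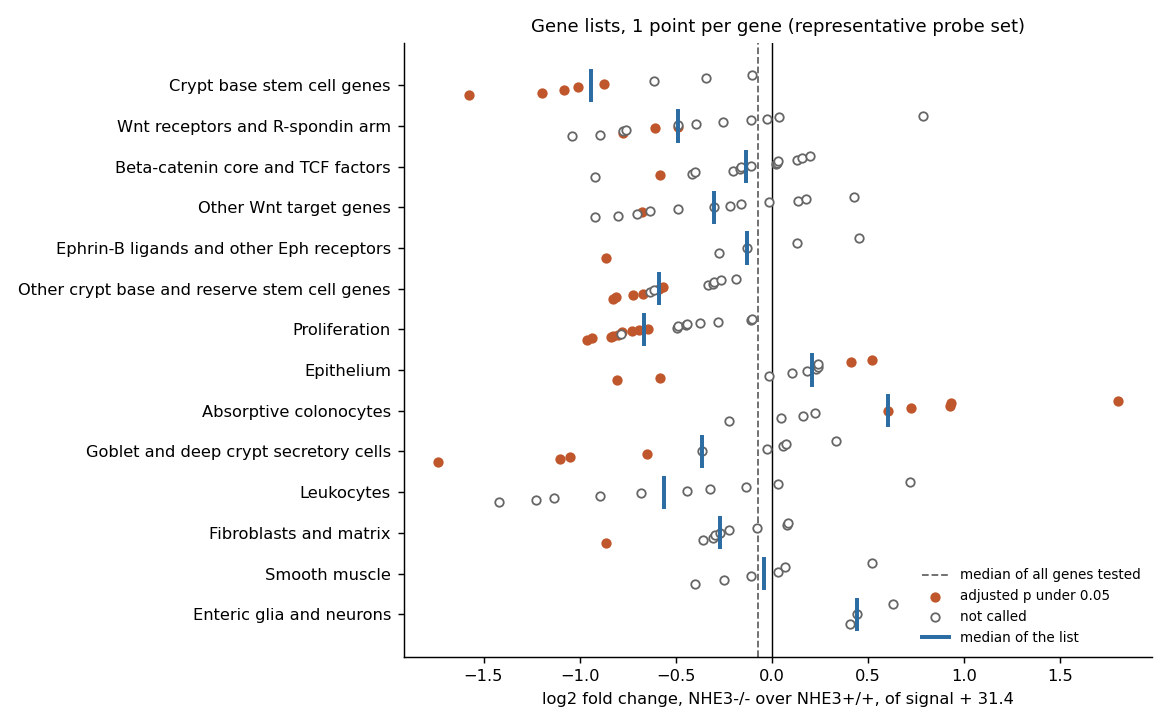
Log2 fold change (NHE3-/- over NHE3+/+, x axis) of the tested genes of each list, 1 point per gene through its representative probe set. Filled points passed the threshold, the blue bar is the list's median and the dashed line the median of all genes tested (-0.07). In the fit shown, the crypt base genes have the most negative median (-0.94) of the 14 lists, and absorptive colonocyte markers the highest (0.60). With NHE3-/- array 3 alone the leukocyte median (-1.02) was more negative than that of the crypt base genes (-0.89). The median of enteric glia and neurons (0.79) was then above that of the absorptive markers (0.50), as also without wild-type array 2 (0.56 against 0.47).

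Markers of the cells around the crypt base moved in both directions. Of 18 proliferation genes 9 were lower and 0 higher (median -0.67), with 14 lower and 0 higher at an unadjusted p under 0.05, among them Mcm5 (-0.96, SE 0.20, adjusted p = 0.0113) and Mcm3 (-0.93, SE 0.19, adjusted p = 0.0114), subunits of the replicative helicase, Top2a (-0.83, SE 0.17, adjusted p = 0.0100) and Mki67 (-0.82, SE 0.12, adjusted p = 0.00179). Their summed signal was 21654 to 28065 in wild type and 15024 to 19635 in NHE3-/- colon, without overlap. The count of lower genes was 4 with medians set equal, 1 with no mean-variance trend, and 7 with no filter or quantile normalization. It was 5 without wild-type array 1, NHE3-/- array 1 or NHE3-/- array 3, and 6 without wild-type array 2. Without wild-type array 3 it was 9, and without NHE3-/- array 2 it was 11. With NHE3-/- array 3 alone the median log2 fold change of the list was -0.83.

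Of 9 absorptive colonocyte markers 5 were higher and 0 lower, also at an unadjusted p under 0.05. These include Slc51b, a bile acid transporter subunit (1.80, SE 0.11, adjusted p = 9.3e-06), the water channel Aqp8 (0.93, SE 0.11, adjusted p = 0.000377), the carbonic anhydrase Car4 (0.93, SE 0.15, adjusted p = 0.00299) and the anion exchanger Slc26a3 (0.72, SE 0.13, adjusted p = 0.00535). With quantile normalization 1 marker was called lower as well, and with no trend 3 were higher. Their summed signal was 180101 to 221510 in wild type and 228350 to 285117 in NHE3-/- colon, without overlap.

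Markers of the epithelium as a whole gave 2 higher and 2 lower of 10 tested (median 0.21), 4 higher and 1 lower with medians set equal, 1 higher and 2 lower with quantile normalization and 0 higher and 1 lower with no trend. Krt18, a keratin (-0.81, SE 0.11, adjusted p = 0.00106), and Cdx2, an intestinal transcription factor (-0.58, SE 0.13, adjusted p = 0.0191), fell, while Elf3 (0.52, SE 0.11, adjusted p = 0.0128) and the microvillus gene Vil1 (0.41, SE 0.10, adjusted p = 0.0203) rose. Vil1 kept its call in 7 of the 15 alternative fits and lost it without wild-type array 1 or 2 or NHE3-/- array 1 or 3. Elf3 lost its call without wild-type array 3 and with no trend, and Cdx2 kept its call in 9 of the 15, losing it without wild-type array 2 or 3 or NHE3-/- array 3. Their summed signal overlapped, at 173970 to 197821 in wild type and 185089 to 212914 in NHE3-/- colon. Epcam, an adhesion molecule of all epithelial cells, had 0.24 (SE 0.11, adjusted p = 0.195).

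Of 9 goblet and deep crypt secretory cell markers 4 were lower and 0 higher (median -0.36), with 5 lower and 1 higher at an unadjusted p under 0.05. Quantile normalization gave 6 lower and 0 higher, medians set equal 4 lower and 1 higher. The 4 were Reg4 (-1.74, SE 0.17, adjusted p = 0.000147), Kit (-1.10, SE 0.18, adjusted p = 0.00409), Spdef (-1.05, SE 0.13, adjusted p = 0.000577) and Spink4 (-0.65, SE 0.11, adjusted p = 0.00435). Reg4 and Kit mark secretory cells that lie between the Lgr5 cells. The 5 markers not called were Agr2 (-0.36), Muc2 (-0.03), Fcgbp (0.06), Clca1 (0.07) and Tff3 (0.34). Tff3 was the 1 higher at the unadjusted cut. As described, 6 of the 9 had a negative log2 fold change, and with quantile normalization 8 (median -0.53). Smooth muscle (6 tested) and enteric glia and neurons (3 tested) had 0 calls, and 0 at an unadjusted p under 0.05 as well, and Gfap, Elavl4 and S100b were below the filter. The smooth muscle markers were dim. Wild-type means of the 6 tested ran from 103 (Des) to 1030 (Acta2), against 40440 for the keratin Krt8, and Cnn1 was below the filter. How much muscle the RNA holds was not tested. The part of a shift in cell makeup in the fall of the crypt base genes was not tested.

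**Figure D4:**
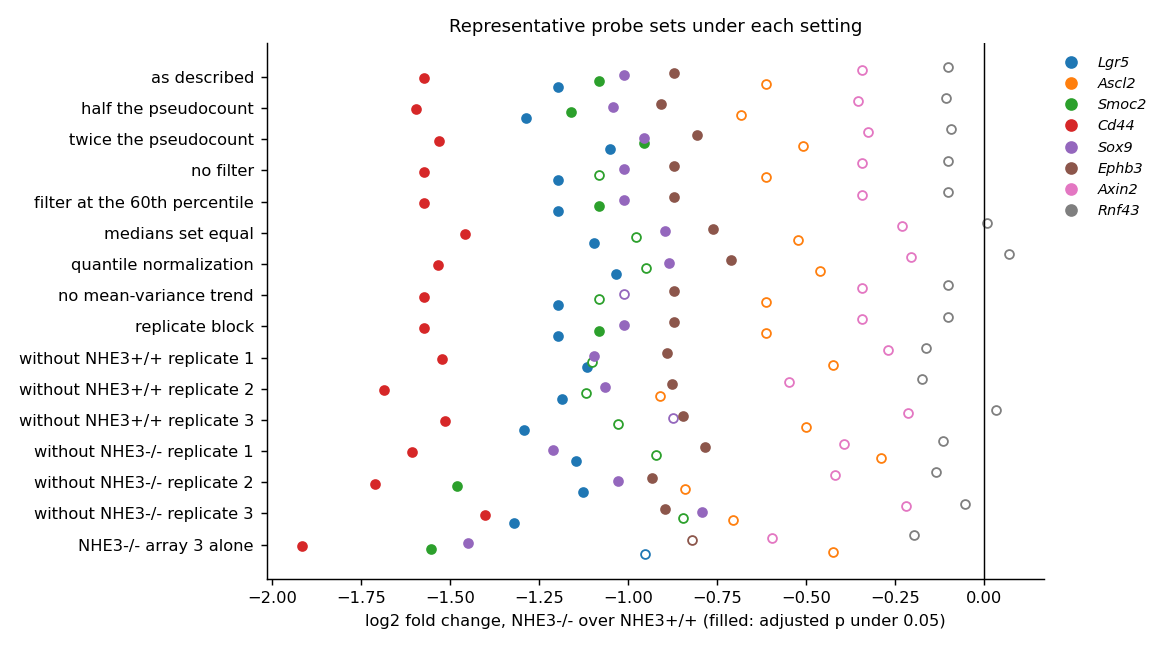
Log2 fold change (NHE3-/- over NHE3+/+, x axis) of each gene's representative probe set in the fit described and under each of 15 alternatives (y axis). Filled points passed an adjusted p of 0.05. Cd44 is filled in each of them, Smoc2 in 6 of the 15, and Rnf43 is the gene that crosses 0.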

How the data were processed

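The authors deposited 1 linear intensity per probe set and array. Per the labels' protocols, Trizol RNA was made into biotinylated cRNA and hybridised to single-label arrays, and the submitters' processing notes name GCOS. No source used here gives its version or settings. A scaling by the authors is visible, to a mean of 500 after trimming 2% from each end.

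From these, log2(signal + 31.4) was computed, 31.4 being the 25th percentile of all values. Tested were 27022 probe sets: the 64 controls were dropped, as were probe sets whose mean log2 signal lay below the 40th percentile. Genotypes were compared with limma 3.58.1 in R 4.3.3 (lmFit, eBayes with a mean-variance trend, two-sided), p-values were adjusted by Benjamini-Hochberg over all probe sets tested, and the fit was tested on simulated data. Errors are limma's SE. The number of arrays limits the precision.

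The platform annotation names 1 gene for 34958 probe sets, several for 932 and none for 9211, and 34754 of the first kind matched RefSeq gene IDs of GRCm38.p6, used for symbols. Members and lists were chosen with earlier results of these data known. Every member was named. Of each other list, up to 4 called genes were named by size, and, in the Wnt, Eph and crypt base lists, the brightest genes not called up to 4 in all. Znrf3, Lrp5, Fzd3, Lef1, Ptprc and Epcam were added after their values were seen. So were the B and T cell genes, the goblet markers not called, Des, Acta2 and Krt8. Same-numbered arrays did not deviate together (correlations of 0.03, -0.04 and 0.00), so no block was used.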

Additional observations from a re-analysis of the deposited data

How the results depend on the processing

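The direction of all 8 representative probe sets was the same in every alternative fit except for Rnf43, which had 0.0075 with medians set equal, 0.069 with quantile normalization and 0.0332 without wild-type array 3. Scaling moved the median of all probe sets tested from -0.10 to 0.01 (medians set equal) or -0.02 (quantile), and changes are relative to that shift. Of all probe sets, 3027 were called as described (1342 higher, 1685 lower), and with no mean-variance trend 1069 (511 higher, 558 lower). Medians set equal gave 1592 higher and 739 lower, quantile normalization 1336 and 1333, and NHE3-/- array 3 alone 767 higher and 1268 lower. Leaving out 1 array gave 1671 to 2596 calls, 839 to 1211 higher and 774 to 1385 lower. The fewest in all were without NHE3-/- array 3 and the fewest lower without wild-type array 3 (774), while 843, 832 and 1011 were lower without wild-type array 2, NHE3-/- array 3 and NHE3-/- array 1.

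Of the crypt base genes, 5 were lower as described, 3 with no trend, and 3 to 5 with 1 array left out (3 without wild-type array 3). Calls over all genes dropped as well. Of all genes tested, 7.51% were lower as described, 2.49% with no trend, 3.07% with medians set equal and 3.71% to 5.85% with 1 array left out. The counts of the other lists under these settings are to be read beside the same shares. Calls were lost for Lgr5 (-0.95) and Ephb3 (-0.82) with NHE3-/- array 3 alone and for Sox9 with no trend (-1.01, adjusted p = 0.0662). Smoc2 lost its call with no filter (-1.08), medians set equal (-0.98), quantile normalization (-0.95) or no trend (-1.08). With 1 array left out, log2 fold changes ran from -1.32 to -1.12 for Lgr5, -1.48 to -0.85 for Smoc2, -1.21 to -0.79 for Sox9, -0.93 to -0.78 for Ephb3 and -0.17 to 0.03 for Rnf43. The probe set of median signal per gene gave 4 lower. Dim probe sets (Ascl2, the dimmer of Axin2 and of Smoc2) had the widest errors, and Ascl2 had no value at the 60th percentile filter. With the replicate number as a block, 2540 probe sets and the same count of 5 crypt base genes were called, no member changed its call, the Wnt receptor list had 1 lower and the leukocyte list 2 lower. The cause of these shifts was not tested.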
